A study of Homo sapiens with 4 samples.

Results

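The enzymes that write, copy and oxidise DNA methylation were followed across 4 single-cell RNA samples of KhES1 cells. They are 7 genes of the 23364 genes listed in the tables. DNMT1 and UHRF1 copy methylation at replication, DNMT3A and DNMT3B set new methylation, and TET1, TET2 and TET3 oxidise it. The genes were chosen by name, each is listed in all 4 tables, and each passed the filter on low counts in the comparisons of whole samples, phases and cell classes given here.

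In mammals DNA methylation sits mostly on the cytosine of CG pairs. After replication the new strand lacks it. UHRF1 binds such half-methylated sites and brings in DNMT1, which copies the mark. DNMT3A and DNMT3B add methylation where there was none, and DNMT3B is known as an abundant transcript of primed human pluripotent cells. TET enzymes oxidise methylcytosine, after which the glycosylase TDG and base excision repair can restore an unmodified base. RNA levels alone were measured here, and no methylation was.

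KhES1 is an established human embryonic stem cell line. The group called hESC (samples 1 and 2) was KhES1 grown in mTeSR-1 medium, a feeder-free medium for pluripotent cells. The group called blastoid (samples 3 and 4) was made from the same line by aggregating the cells, placing the aggregates in a hydrogel and then changing to iBlastoid medium. A blastoid is a stem cell aggregate grown to resemble a blastocyst. The blastoid titles carry the same day as the stem cell titles while their tables carry a later day, so the groups follow the sample descriptions. Nothing in the labels says that the 2 samples of a group came from separate cultures, so p-values measure the spread between these samples, which may be technical.

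Libraries were 10x Genomics 3′ libraries with unique molecular identifiers (UMIs), which count each captured RNA molecule once. After filtering, 1919 to 3171 cells per sample were kept, with 13269422 to 17738422 UMIs per sample and a median of 4994 to 8802 UMIs per cell. The samples of a group shared barcodes, 1317 between the hESC samples and 1035 between the blastoid samples. Both copies were among the kept cells for 23 and 0 of them. Of the kept cells, 1306 in hESC 2 and 1013 in blastoid 4 had a barcode that was also in the other table of the group, so results are also given without such cells where this changed a call. Marker genes placed 2080 and 2905 hESC cells in pluripotent-like clusters. The blastoid cells fell into mesoderm/mesenchyme-like clusters (1754 and 1162 cells), a trophectoderm/amnion-like cluster (410 and 633 cells) and pluripotent-like clusters (109 and 111 cells). Another 159 and 266 hESC cells, and 1 cell in each blastoid sample, were in a shallow cluster that was left unnamed. The remaining 5 and 12 blastoid cells were endothelial-like.

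Over all 4 samples DNMT1 and UHRF1 had the largest rises of the 7 genes in cells called S phase (values further on). In each hESC sample, however, DNMT3B and TET3 rose by a larger factor than DNMT1, and in hESC 1 DNMT3A and TET2 also did. TET2 and TET3 rested on few UMIs in G1-called hESC cells. Because of the ranking over all samples, the stretch of the DNMT1 and UHRF1 promoters that holds a match to an E2F motif is shown here. E2F factors control many genes needed for DNA replication. In RefSeq sequence (GRCh38.p14) a window from 250 bases before to 50 bases after each annotated start was searched on both strands for TTTCCCGC, TTTGGCGC, TTTCGCGC and TTTGCCGC. Capitals mark the match, and each line is written 5′ to 3′ on the strand of the gene. DNMT1 has 1 window, at its start on the minus strand, printed for chr19:10194934-10194995. UHRF1 has 3 windows on the plus strand, of which 2 hold a match, printed for chr19:4909447-4909514 and chr19:4909944-4910011.
DNMT1: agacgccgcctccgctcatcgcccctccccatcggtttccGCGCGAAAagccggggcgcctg
UHRF1, first start: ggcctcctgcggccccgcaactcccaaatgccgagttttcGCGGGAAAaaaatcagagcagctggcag
UHRF1, second start: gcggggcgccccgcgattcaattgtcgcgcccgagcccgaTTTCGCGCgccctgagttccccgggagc
The match begins at position -2 from the start in DNMT1 and at -14 and -160 in the UHRF1 windows. The windows of DNMT3A, DNMT3B, TET1, TET2 and TET3 held no match. The single DNMT3B window (chr20:32779602-32779901) and all windows of TET3 and UHRF1 lie inside the gene spans given below, so the first bases of those spans were not searched. Of all 35114 promoter windows 3.31% held one, and of 27303 genes 3.99% held one in any window. A match says only that these letters are in the window, and no binding was measured.

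In RefSeq the 7 genes lie on 5 chromosomes of GRCh38.p14. DNMT1 is at chr19:10133346-10194953 and UHRF1 at chr19:4903080-4962154. DNMT3A is at chr2:25227874-25342590 and DNMT3B at chr20:32762385-32809356. TET1 is at chr10:68560337-68694487, TET2 at chr4:105145875-105279803 and TET3 at chr2:73983631-74135498. In the GENCODE 29 annotation DNMT1 overlaps the coding gene S1PR2 on the same strand, and TET1 holds the processed pseudogenes COX20P1 and RPS3AP37 on the same strand, so their counts are less certain than those of the others. TET2 overlaps the antisense gene TET2-AS1, and TET3 overlaps AC110801.1, a gene model of unsettled type, both on the other strand.

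The first question was which of these enzymes differ between stem cells and blastoids as a whole. Of the 7 genes, 4 passed the test over all kept cells, 2 lower (DNMT3B and DNMT3A) and 2 higher (TET2 and UHRF1) in the blastoid samples. Of all 16328 genes tested 50.2% were called in this comparison, 27.3% higher and 22.9% lower, so the count for the 7 genes was near the background. The median log2 fold change of the 7 genes was -0.04, against 0.05 over all genes. With library size alone in place of TMM the median over all genes was 0.18. Values below are UMI counts scaled to a library of 1000000 UMIs (CPM), with library sizes adjusted by TMM, and tests are edgeR quasi-likelihood tests on UMIs summed per sample with Benjamini-Hochberg adjustment over all genes tested. The threshold for a call was 0.05 on the adjusted p.

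For the copying pair, DNMT1 was at 115 and 139 CPM in hESC 1 and 2 and at 159 and 149.9 CPM in blastoid 3 and 4. The groups did not overlap, and the difference did not pass the edgeR test (log2 fold change 0.29, SE 0.14, adjusted p = 0.122). UHRF1 was at 9.65 and 13.4 CPM in the hESC samples and at 27.7 and 24 CPM in the blastoid samples. It rose 2.24-fold (log2 fold change 1.16, SE 0.19, adjusted p = 0.00214) and was called under all 11 alternatives run.

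Among the enzymes of new methylation, DNMT3B showed the largest difference of the 7 genes. It was at 307 and 319 CPM in the hESC samples and at 43.9 and 38.4 CPM in the blastoid samples, a 7.6-fold fall (log2 fold change -2.93, SE 0.14, adjusted p = 8.54e-06). All 11 alternatives called it, with log2 fold changes from -3.04 to -2.79. DNMT3A was at 79.5 and 88.1 CPM in the hESC samples and at 55.9 and 56.6 CPM in the blastoid samples. Its 1.49-fold fall passed the test (log2 fold change -0.57, SE 0.13, adjusted p = 0.00756), but the call was lost without hESC 1 (adjusted p = 0.0587) and without hESC 2 (adjusted p = 0.133). DNMT3L, a cofactor of these enzymes without catalytic activity, could not be tested.

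Of the oxidising enzymes, TET2 was at 6.24 and 4.46 CPM in the hESC samples and at 20.7 and 17.6 CPM in the blastoid samples. It rose 3.61-fold (log2 fold change 1.85, SE 0.21, adjusted p = 3.78e-04) and was called under all 11 alternatives. TET1 was at 169.6 and 174 CPM in the hESC samples and at 143 and 137 CPM in the blastoid samples. The blastoid samples were both lower, without passing the test (log2 fold change -0.29, SE 0.12, adjusted p = 0.0791), and a call appeared without blastoid 3 (adjusted p = 0.0324) or blastoid 4 (adjusted p = 0.0416). TET3 was at 11.2, 9.24, 10.6 and 9.17 CPM in the same order, with overlapping groups and no call (log2 fold change -0.04, SE 0.19, adjusted p = 0.859). A missed call does not show that TET3 was equal in the groups.

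**Figure D1:**
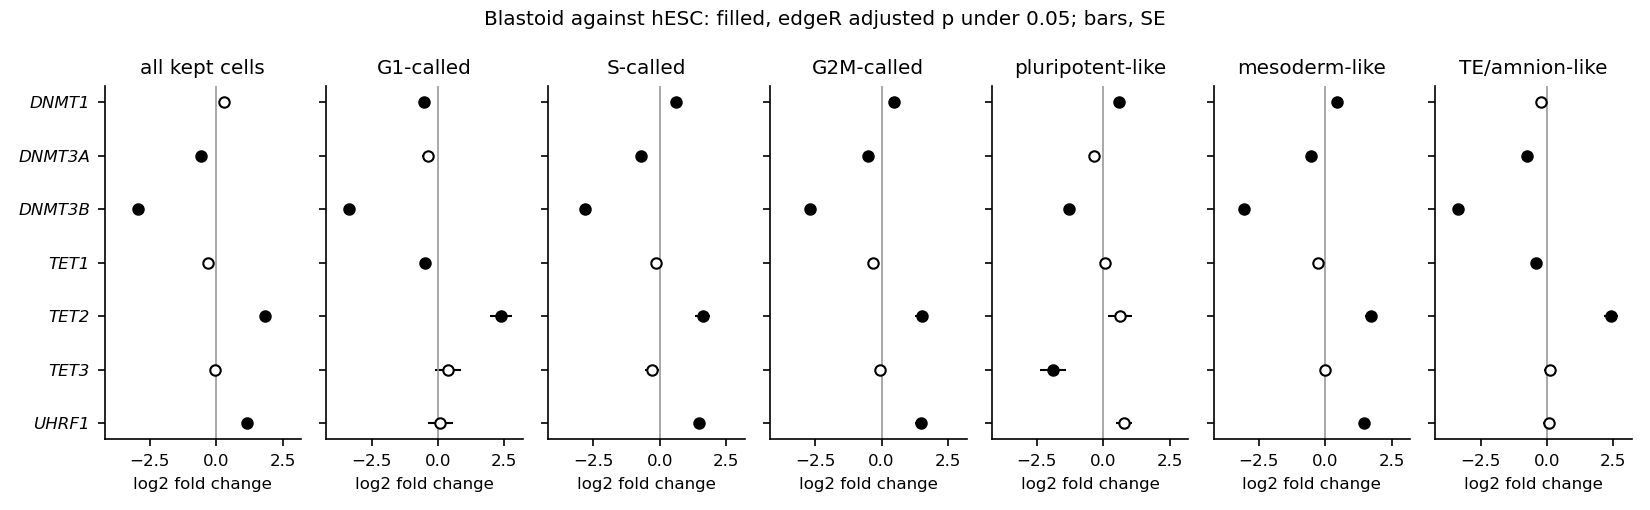
Log2 fold change of each of the 7 genes in blastoid against hESC samples (x axis) with its standard error (bars), in all kept cells, in cells of 1 phase call and in blastoid cells of 1 marker-defined class against pluripotent-like hESC cells; filled points have an edgeR adjusted p under 0.05. DNMT3B lies left of 0 in all 7 panels, from -3.36 to -1.31, while DNMT1 lies left of 0 in G1-called cells (-0.53) and right of it in S-called cells (0.62).

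The share of cells with at least 1 UMI was compared after thinning each cell to 2000 UMIs, which left 1804, 2198, 2171 and 1877 cells. DNMT3B was detected in 39.6% and 46.1% of hESC cells (exact 95% intervals 37.3% to 41.9% and 44.0% to 48.2%) and in 7.92% and 6.61% of blastoid cells (6.82% to 9.14% and 5.52% to 7.83%). TET2 was detected in 0.887% and 0.864% of hESC cells and in 4.24% and 4.16% of blastoid cells. UHRF1 was detected in 1.66% and 2.27% of hESC cells and in 5.44% and 4.26% of blastoid cells. For these genes the groups stood apart in the direction of the CPM values. The share of all genes whose groups stood apart in detection was not computed, so no count is read from this. DNMT3A and TET1 were detected in fewer blastoid cells in both samples (group means 10.7% against 13.4%, and 24.9% against 27.6%), while DNMT1 and TET3 overlapped. For DNMT3A, TET1, DNMT1 and TET3 this rested on the depth chosen. Thinned to 1000 UMIs DNMT3A and TET1 overlapped (group means 5.81% against 6.46%, and 13.6% against 13.7%). Without thinning TET1 was detected in more blastoid cells (62.3% against 50.2%) while DNMT3A overlapped (34.6% against 31.5%). DNMT1 and TET3 stood apart, higher in blastoid cells, when thinned to 1000 UMIs (13.9% against 11.3%, and 1.03% against 0.822%). They also did so without thinning (60.2% against 41.9%, and 7.51% against 5.06%). Without thinning, the mean shares for DNMT3B were 65.6% in hESC and 25.0% in blastoid cells. Before thinning the median depth of these cells was 6480, 6183.5, 6359 and 8893 UMIs. The intervals cover counting error only, no exact permutation test of 2 samples against 2 can go below p = 0.33, and free RNA in the droplets was not measured.

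DNA replication and the copying of methylation go together, so the mix of cycling states was compared next. Each cell was given a phase call from lists of 41 S phase genes and 52 G2 and M phase genes, none of them among the 7 enzymes. G1 was called in 11.9% and 6.10% of hESC cells and in 32.9% and 39.3% of blastoid cells. S was called in 36.8% and 40.2% of hESC cells and in 28.3% and 26.5% of blastoid cells. The G1 share was 27.1 percentage points higher in the blastoid samples (exact permutation p = 0.33, two-sided, the smallest this design allows). Splitting the cells instead by tertiles of their list UMIs gave 8.48 points with overlapping samples, so the size of this difference depends on how phases are called. Within the blastoids, 60.1% and 64.0% of trophectoderm/amnion-like cells were called G1, against 27.7% and 28.1% of mesoderm/mesenchyme-like cells. A phase call from RNA is not a measurement of cycling.

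Which of the enzymes differ between phases was tested within samples, with the sample as a block. S-called against G1-called cells, 4 of 7 genes passed, against 20% of 14006 genes tested (10.5% higher and 9.57% lower). UHRF1 rose 6.11-fold (log2 fold change 2.61, SE 0.20, adjusted p = 3.92e-05) and was called under all 12 alternatives. DNMT1 (log2 fold change 0.85, SE 0.19, adjusted p = 0.0082) and DNMT3B (log2 fold change 0.58, SE 0.12, adjusted p = 0.00632) were also higher in S-called cells. TET2 was lower (log2 fold change -0.69, SE 0.16, adjusted p = 0.0116). In G1-called hESC cells TET2 was at 4.57 and 5.64 CPM, on 5 and 4 UMIs. It was at 5.81 and 4.38 CPM in S-called and at 6.71 and 4.40 CPM in G2M-called hESC cells, so the hESC samples differed in direction. In the blastoid samples TET2 went from 30.7 and 23.1 CPM in G1-called to 15.8 and 15.4 CPM in S-called cells. The calls for DNMT1, DNMT3B and TET2 were each lost without blastoid 3 (adjusted p = 0.167, 0.0811 and 0.2405) and without blastoid 4 (adjusted p = 0.125, 0.0957 and 0.103). All 3 were also lost with phases by tertiles of list UMIs (adjusted p = 0.0647, 0.0887 and 0.129). TET2 was also lost without cells with shared barcodes (adjusted p = 0.0742). DNMT3A, TET1 and TET3 did not pass. G2M-called against G1-called cells, the same 4 genes passed, against 21.5% of all genes, with log2 fold changes of 1.50 for UHRF1, 0.70 for DNMT1, 0.63 for DNMT3B and -0.64 for TET2. Without blastoid 3 or blastoid 4, UHRF1 alone was called there, and with phases by tertiles of list UMIs UHRF1 was not called (adjusted p = 0.449).

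The phase difference itself was not of one size in the 2 groups. DNMT1 was at 109.7 and 119.9 CPM in G1-called and at 115 and 148 CPM in S-called hESC cells. In blastoid cells it went from 84.7 and 76 CPM in G1-called to 209 and 196 CPM in S-called cells. Both blastoid samples differed more than 2-fold between these phase calls, and neither hESC sample did. The S-against-G1 difference of DNMT1 was larger in the blastoid samples by 1.16 on the log2 scale (SE 0.14, edgeR adjusted p = 7.62e-07), and all 12 alternatives called it. DNMT3B passed the same test (0.57, SE 0.15, adjusted p = 0.0106), giving 2 of 7 genes against 8.78% of all genes (5.16% larger and 3.62% smaller, or 4.70% and 1.81% with DESeq2). That second call was lost without hESC 1 (adjusted p = 0.1804) and without cells whose barcode is in both samples of a group (adjusted p = 0.262). UHRF1 went from 6.4 and 7.05 to 16.2 and 19.5 CPM in hESC and from 8.73 and 5.91 to 52.8 and 47.2 CPM in blastoid cells, and its difference between groups did not pass (1.43, SE 0.51, adjusted p = 0.0834). UHRF1 was uncalled under 9 of 12 alternatives. It was called with phases by tertiles of list UMIs (edgeR adjusted p = 4.75e-06), without shared barcodes (adjusted p = 0.0274) and without blastoid 3. TET1 did not pass (0.30 on the log2 scale). It was uncalled under 9 of 12 alternatives and called under others, among them the tertiles. The blastoid sums pool classes whose mix differed between phase calls. In blastoid 3 and 4, trophectoderm/amnion-like cells were 217 of 714 and 395 of 737 G1-called cells. They were 52 of 615 and 91 of 497 S-called cells. Pluripotent-like cells gave 5 of 106 and 7 of 142 DNMT3B UMIs in G1-called cells. In S-called cells they gave 59 of 207 and 84 of 216. The part of this mix in the phase differences was not tested.

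**Figure D2:**
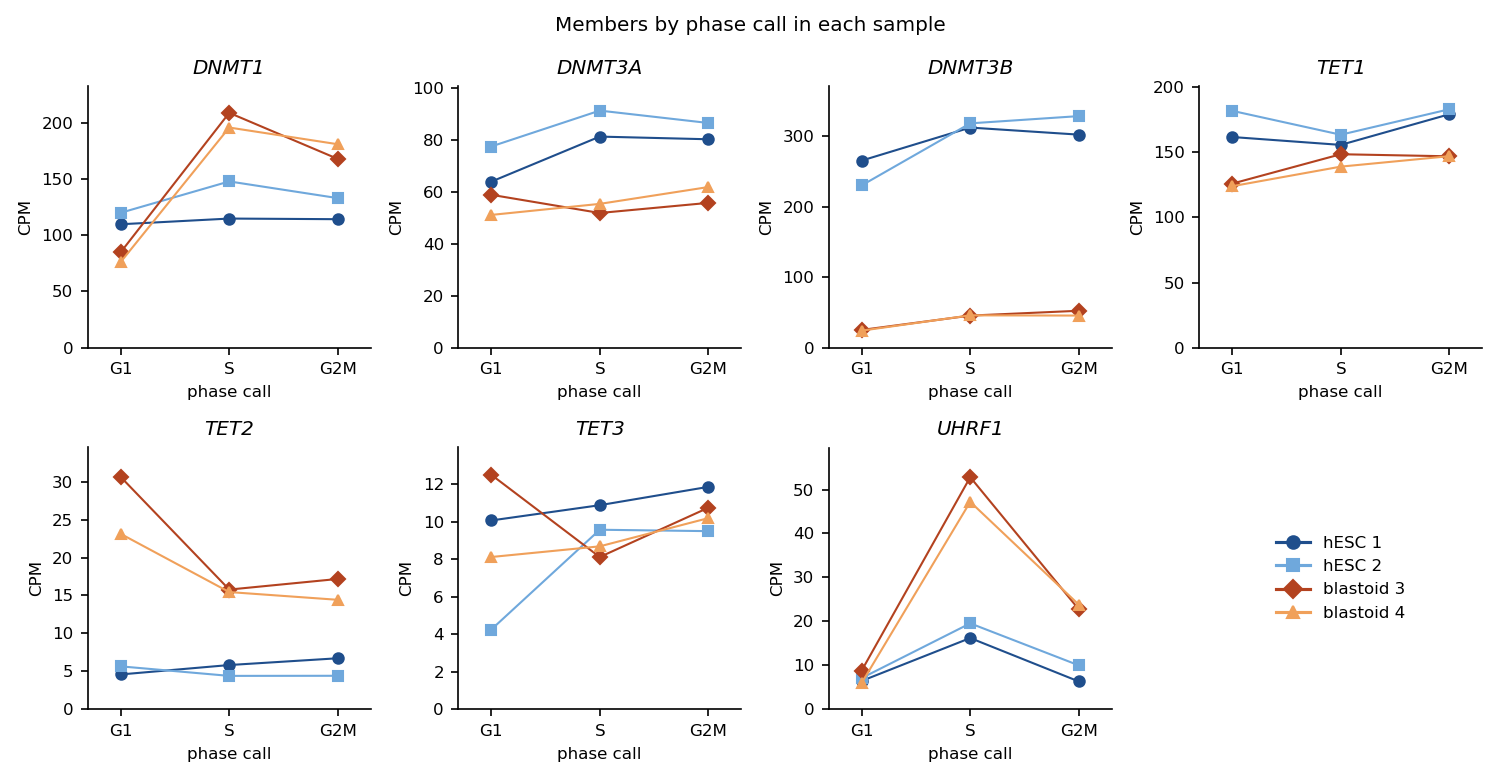
CPM of each of the 7 genes (y axis, from 0) in cells called G1, S and G2M (x axis), with 1 line for each of the 4 samples. DNMT1 goes from 109.7 and 119.9 CPM in G1 to 115 and 148 CPM in S in the hESC samples and is more than 2-fold higher in S than in G1 in both blastoid samples, and UHRF1 peaks in S in all 4.

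The phase calls did not split the 2 groups equally. G1-called cells held a mean of 3.54 and 3.93 UMIs of the S list per 2000 UMIs in the hESC samples and 2.14 and 1.92 in the blastoid samples. S-called cells held 8.88 and 9.90 in the hESC samples and 11.6 and 10.4 in the blastoid samples. The part of this in the difference between groups was therefore looked at in cells with the same number of S list UMIs per 2000, in 5 bins set after the values had been seen (CPM on total UMIs here, without TMM). With 6 to 8 such UMIs, DNMT1 was at 107 and 135 CPM in the hESC samples and at 178 and 186 CPM in the blastoid samples. With 12 or more it was at 126 and 142 CPM in the hESC samples and at 260.03 and 233 CPM in the blastoid samples. With 0 to 2 the order was the other way, with 103 and 121 CPM in the hESC samples and 84.4 and 76.6 CPM in the blastoid samples. UHRF1 was at 15.5 and 26.9 CPM in hESC cells and at 68.3 and 64.4 CPM in blastoid cells with 12 or more S list UMIs. In the bin of 0 to 2 UMIs it rested on 1 and 2 UMIs in the hESC samples. DNMT3B stayed between 261 and 324 CPM in the hESC samples and between 22.7 and 57.3 CPM in the blastoid samples over all bins. These are descriptions without a test.

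**Figure D3:**
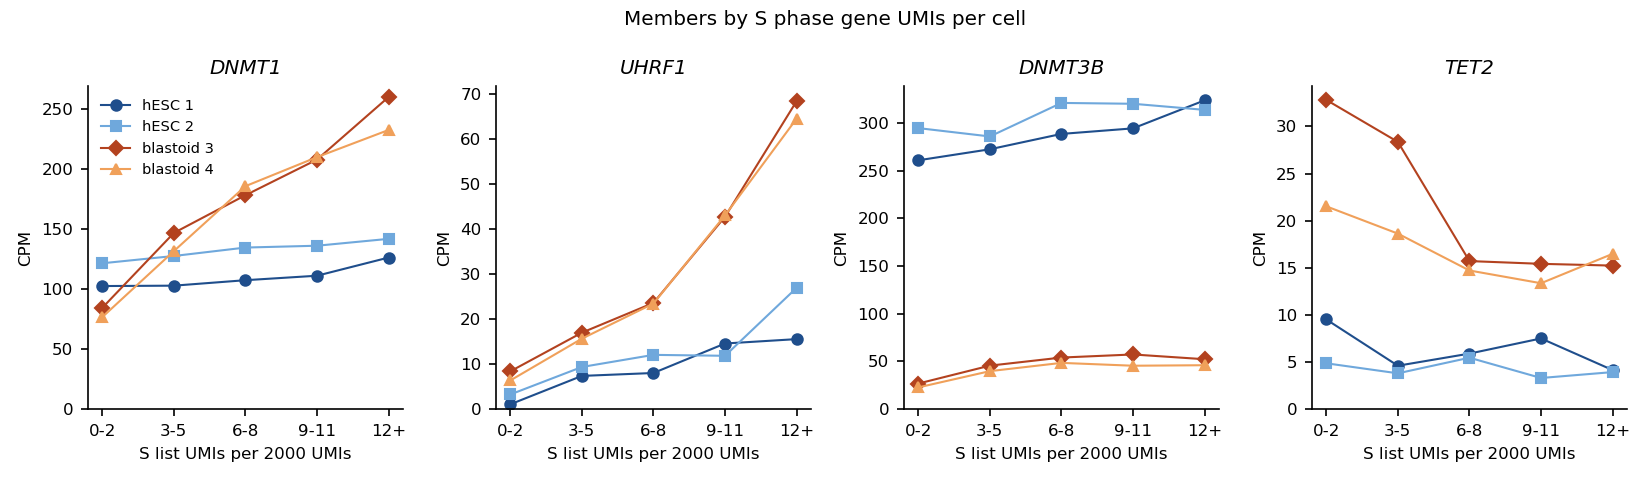
CPM of DNMT1, UHRF1, DNMT3B and TET2 (y axes, from 0) in cells grouped by their number of S list UMIs per 2000 UMIs (x axis), with 1 line for each of the 4 samples. DNMT1 climbs from 84.4 and 76.6 CPM to 260.03 and 233 CPM in the blastoid samples and from 103 and 121 CPM to 126 and 142 CPM in the hESC samples.

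Comparing blastoid with hESC cells of 1 phase call gave different calls for the copying pair. In G1-called cells 4 of 7 genes passed, 3 lower and 1 higher, against 37.5% of 12394 genes (17.4% lower and 20.2% higher). In S-called cells 5 of 7 passed, against 42% of 13412 genes (22.5% higher and 19.5% lower, or 28.2% and 14.4% with library size alone). In G2M-called cells 5 of 7 passed, against 51.6% of 14451 genes. DNMT1 was lower in blastoid cells among G1-called cells (log2 fold change -0.53, SE 0.19, adjusted p = 0.0415), higher among S-called cells (log2 fold change 0.62, SE 0.16, adjusted p = 0.00864) and higher among G2M-called cells (log2 fold change 0.47, SE 0.14, adjusted p = 0.0109). The G1 call was lost under 7 of 11 alternatives, among them those without hESC 1 (adjusted p = 0.182), without hESC 2 (adjusted p = 0.244) and without shared barcodes (adjusted p = 0.0907). The S call was lost without hESC 1 (adjusted p = 0.268). The G2M call was lost without hESC 1 (adjusted p = 0.283), without hESC 2 (adjusted p = 0.0653) and without shared barcodes (adjusted p = 0.0834). UHRF1 was called in S-called cells (log2 fold change 1.47, SE 0.19, adjusted p = 6.01e-05) and in G2M-called cells (log2 fold change 1.48, SE 0.22, adjusted p = 4.08e-05) under all alternatives run. In G1-called cells it was at 6.4 and 7.05 CPM in hESC and 8.73 and 5.91 CPM in blastoid samples, with no call (log2 fold change 0.09, SE 0.48, adjusted p = 0.922).

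DNMT3B and TET2 differed within every phase call. DNMT3B fell by 3.36, 2.80 and 2.71 on the log2 scale in G1-, S- and G2M-called cells, with edgeR adjusted p of 2.82e-07, 4.16e-08 and 6.11e-10. TET2 rose by 2.39, 1.62 and 1.50, with adjusted p of 8.50e-04, 5.36e-04 and 9.80e-05. Both were called under all alternatives of each of these comparisons. DNMT3A was lower in S-called (log2 fold change -0.70, SE 0.16, adjusted p = 0.0031) and G2M-called cells (log2 fold change -0.53, SE 0.14, adjusted p = 0.00551), calls that were lost without hESC 2 (adjusted p = 0.0779 and 0.119). In G1-called cells DNMT3A did not pass (log2 fold change -0.37, SE 0.21, adjusted p = 0.191). TET1 passed in G1-called cells (log2 fold change -0.48, SE 0.17, adjusted p = 0.0484) and not in S- or G2M-called cells. Its call was lost under 6 of 11 alternatives, among them those without hESC 1 (adjusted p = 0.192), without hESC 2 (adjusted p = 0.318) and without shared barcodes (adjusted p = 0.0585). In G2M-called cells TET1 was uncalled under 7 of 11 alternatives and called lower under others. TET3 did not pass in any phase call.

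The classes of blastoid cells were then each compared with the pluripotent-like hESC cells. These comparisons share the hESC samples and so are not independent of each other, and differences between classes were not tested. The class names were rebuilt from markers, with the 7 enzymes and the phase lists left out of the clustering. Mesoderm/mesenchyme-like cells had summed levels of the 15 mesoderm and mesenchyme markers of 4746 and 4773 CPM, against 79.9 and 81.9 CPM in pluripotent-like hESC cells. Trophectoderm/amnion-like cells had 4484 and 5427 CPM of their 15 markers, against 188 and 163 CPM.

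In mesoderm/mesenchyme-like cells 5 of 7 genes passed, 3 higher and 2 lower, against 55.3% of 15669 genes (28.7% higher and 26.6% lower). DNMT3B was at 39.2 and 34.4 CPM, against 310.1 and 325 CPM in pluripotent-like hESC cells (log2 fold change -3.06, SE 0.15, adjusted p = 6.06e-08). TET2 rose to 18.5 and 15.9 CPM from 6.38 and 4.48 CPM (log2 fold change 1.72, SE 0.21, adjusted p = 6.19e-05). UHRF1 rose to 30.6 and 32.3 CPM from 9.78 and 13.6 CPM (log2 fold change 1.46, SE 0.18, adjusted p = 5.76e-05). In G1-called cells of the class alone UHRF1 was at 9.67 and 7.29 CPM and did not pass (adjusted p = 0.649). DNMT1 rose to 166 and 170.4 CPM from 116 and 141 CPM (log2 fold change 0.43, SE 0.14, adjusted p = 0.0221). The DNMT1 call was lost without hESC 1 (adjusted p = 0.384), without hESC 2 (adjusted p = 0.0649) and without shared barcodes (adjusted p = 0.208), and in G1-called cells alone the direction turned (log2 fold change -0.49, adjusted p = 0.0372). DNMT3A fell to 56.7 and 58.1 CPM from 81 and 90.1 CPM (log2 fold change -0.53, SE 0.13, adjusted p = 0.00522), a call lost without hESC 2 and in G1-called cells alone. In those G1-called cells DNMT3A was at 66.1 and 58.3 CPM, against 65.9 and 78.1 CPM in G1-called pluripotent-like hESC cells. TET1 and TET3 did not pass.

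Trophectoderm/amnion-like cells had 4 of 7 genes called, 3 lower and 1 higher, against 58.3% of 15083 genes (27.9% lower and 30.4% higher). DNMT3B was at 33 and 27.5 CPM (log2 fold change -3.36, SE 0.15, adjusted p = 1.74e-07). TET2 was at 34.4 and 22.9 CPM (log2 fold change 2.41, SE 0.25, adjusted p = 3.35e-05), with a wider gap between the blastoid samples than in the mesoderm/mesenchyme-like cells. DNMT3A fell to 47.2 and 50.2 CPM (log2 fold change -0.76, SE 0.13, adjusted p = 9.32e-04), a call lost under 1 of 16 alternatives. TET1 fell to 136 and 119.8 CPM (log2 fold change -0.42, SE 0.13, adjusted p = 0.0203). The TET1 call was lost under 3 of 16 alternatives, among them those without hESC 1 and without hESC 2. The copying pair did not pass here. DNMT1 was at 113 and 103 CPM (adjusted p = 0.234) and UHRF1 at 13.8 and 10.7 CPM (adjusted p = 0.81). In S-called cells of the class alone UHRF1 was at 47.2 and 30.4 CPM, against 16.5 and 19.97 CPM in S-called pluripotent-like hESC cells, and passed (log2 fold change 1.00, adjusted p = 0.0073). In the G1-called cells DNMT1 was at 90.6 and 74.4 CPM, against 112 and 121 CPM, and passed as lower (log2 fold change -0.54, adjusted p = 0.0352). For mesoderm/mesenchyme-like cells called G1, DNMT1 was at 83.0 and 84.7 CPM and UHRF1 at 9.67 and 7.29 CPM. The G1-called trophectoderm/amnion-like cells had UHRF1 at 8.36 and 4.88 CPM. Among S-called cells DNMT1 was at 226 and 212 CPM in mesoderm/mesenchyme-like and at 152 and 154 CPM in trophectoderm/amnion-like cells. The comparisons within a class and phase call were added after the values had been seen.

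**Figure D4:**
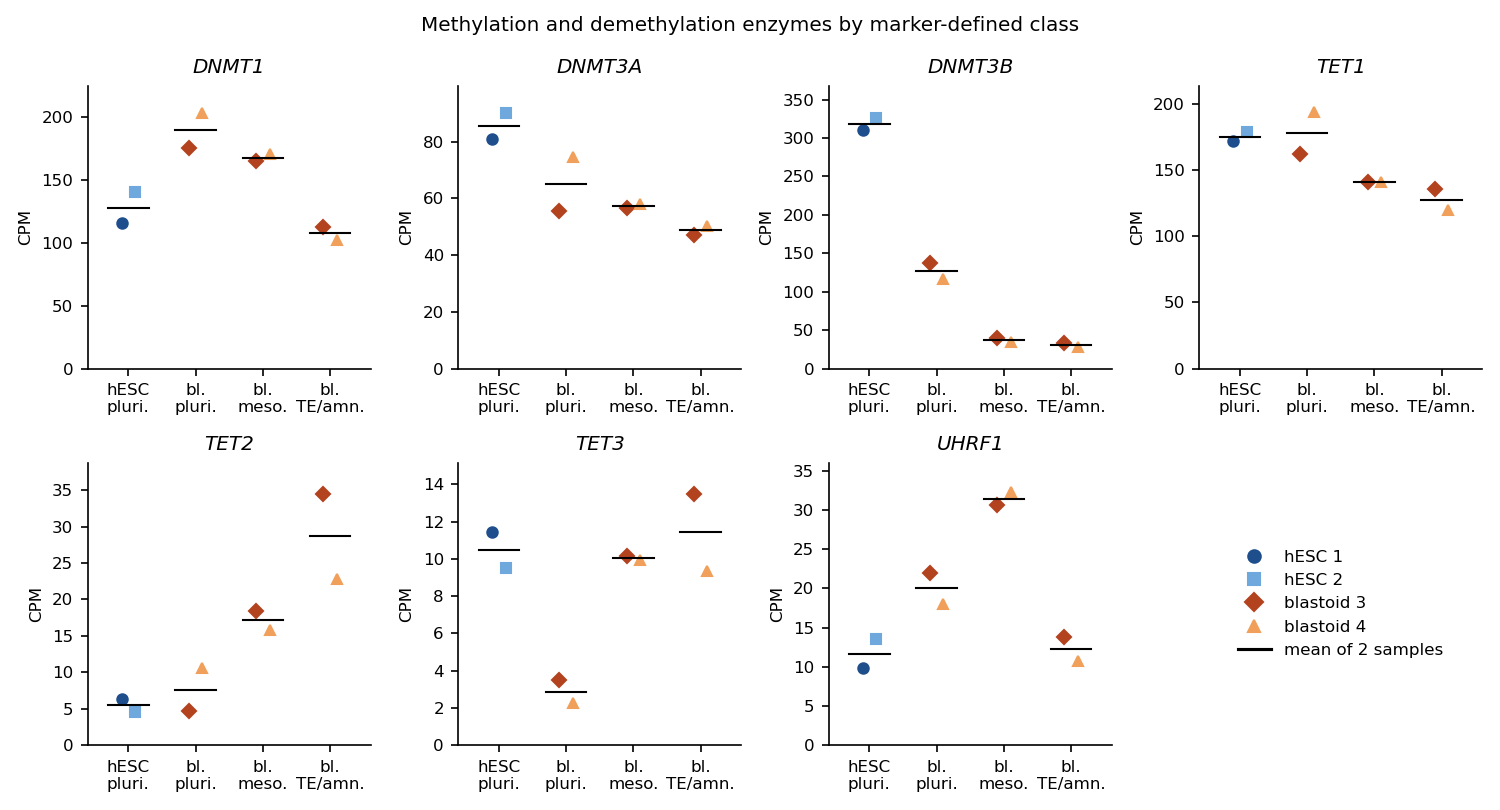
CPM of each of the 7 genes (y axes, from 0) in pluripotent-like hESC cells and in pluripotent-like, mesoderm/mesenchyme-like and trophectoderm/amnion-like blastoid cells; points are samples and bars are means of 2 samples. With phase calls pooled, UHRF1 and DNMT1 are higher in mesoderm/mesenchyme-like than in trophectoderm/amnion-like cells in both blastoid samples, and TET2 is higher in the trophectoderm/amnion-like cells. The G1-called share differs between these classes, and in G1-called cells alone DNMT1 has the other order in blastoid 3.

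The pluripotent-like blastoid cells are few, and different clusters hold this class in the 2 groups. Cluster 9 held 86 and 104 of the 109 and 111 blastoid cells of the class and no hESC cell, while the hESC cells were in clusters 0, 3 and 4. Cluster 9 had a median of 11092.5 UMIs per cell and detected 11 of 12 pluripotency markers but also 11 of 15 trophectoderm and amnion markers in at least 10% of its cells. Summed over the class, pluripotency markers reached 3718 and 4028 CPM in the blastoid samples against 7026 and 7117 CPM in the hESC samples. Trophectoderm and amnion markers reached 929 and 646 CPM against 188 and 163 CPM. The part of these mixed markers, of doublets and of depth in the results for this class was not tested.

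In this class 3 of 7 genes passed, against 24.7% of 14015 genes. DNMT3B was at 138 and 116 CPM, below the 310.1 and 325 CPM of the hESC cells (log2 fold change -1.31, SE 0.16, adjusted p = 9.19e-06) and above the other blastoid classes in both samples. In G1-called cells of the class it was at 34.7 and 39.4 CPM on 5 and 7 UMIs, near the other blastoid classes, against 272 and 236 CPM in G1-called hESC cells. In S-called cells it was at 188 and 125 CPM, against 318 and 323 CPM. All 16 alternatives called it. DNMT1 was at 176 and 203 CPM, against 116 and 141 CPM (log2 fold change 0.60, SE 0.16, adjusted p = 0.00834). That call was lost without hESC 1, without hESC 2, without shared barcodes (adjusted p = 0.0508) and in G1-called cells alone. In G1-called cells of the class DNMT1 was at 146 and 107 CPM on 21 and 19 UMIs, against 112 and 121 CPM in G1-called hESC cells. TET3 was at 3.47 and 2.26 CPM, against 11.4 and 9.51 CPM (log2 fold change -1.89, SE 0.50, adjusted p = 0.0089), but the blastoid values rest on 3 UMIs in each sample. On these counts the log2 ratio was -1.83 with an exact interval of -3.29 to -0.69 for counting error, and the call was lost under 6 of 15 alternatives, among them DESeq2 (adjusted p = 0.0628), without hESC 1 (adjusted p = 0.0922) and without blastoid 4 (adjusted p = 0.1001). UHRF1 was at 22 and 18.1 CPM, above both hESC samples, without a call (adjusted p = 0.0623). It was uncalled under 11 of 15 alternatives and called higher under others. TET2 was at 4.63 and 10.5 CPM on 4 and 14 UMIs and did not pass (adjusted p = 0.322). DNMT3A passed without blastoid 4 (adjusted p = 0.0331) and without shared barcodes (adjusted p = 0.0443) only, and TET1 did not pass.

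Over single clusters DNMT3B was highest in the hESC cells, then in cluster 9, while the other blastoid classes overlapped. Between 220 and 321 CPM were measured in the hESC sums, including the shallow unnamed cluster. Cluster 9 was at 148 and 114 CPM. Among mesoderm/mesenchyme-like cells, cluster 7, whose leading genes include MESP1, MSGN1 and MIXL1, genes of nascent mesoderm, was at 64.5 CPM in blastoid 3, and was too small to sum in blastoid 4. Cluster 1, led by PRRX1 and PITX1, was at 46.7 and 38.5 CPM. Cluster 5, led by CXCL14 and POSTN, and cluster 8, whose leading genes include MYL7 and ACTA2, lay between 21.6 and 22.4 CPM. The trophectoderm/amnion-like cluster 2 was at 33.5 and 26.1 CPM. Neighbours in this order, such as clusters 1 and 2, differed by little more than the samples of a cluster did. TET2 was at 0 to 7.8 CPM in hESC sums, at 5.1 and 10.3 CPM in cluster 9 and at 14.4 to 34.9 CPM in the other blastoid clusters. It was highest in cluster 2 in blastoid 3 (34.9 CPM) and in cluster 8 in blastoid 4 (30.9 CPM).

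**Figure D5:**
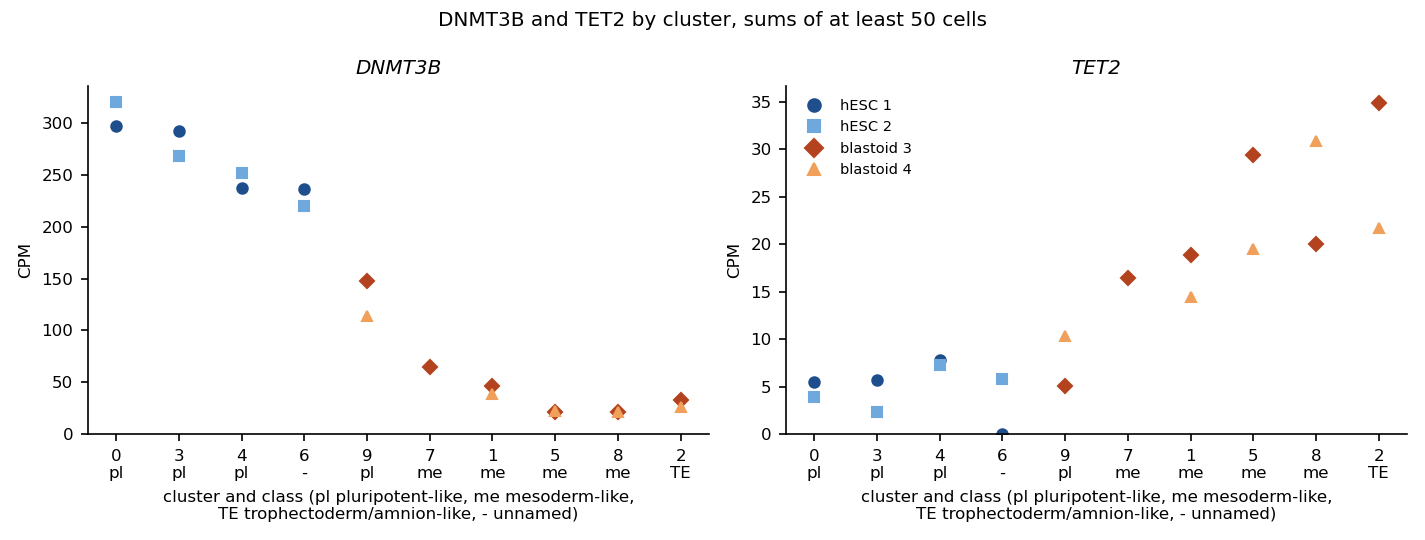
CPM of DNMT3B and TET2 (y axes, from 0) in each cluster (x axis, with the class under its number), 1 point for each sample with at least 50 cells in the cluster. DNMT3B falls from 220 to 321 CPM in hESC clusters through 148 and 114 CPM in cluster 9 to under 65 CPM elsewhere, while TET2 is lowest in hESC clusters and cluster 9.

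Genes with a like pattern were listed by Pearson correlation of log2(CPM + 1) over the 19 sums of sample and cluster with at least 50 cells, among the 4236 genes whose log2 CPM averaged 5 or more. The sums share libraries, depth and cell classes, so the values are descriptions. DNMT1 was most like NOLC1 (r = 0.91), MCM10 (0.88) and KRR1 (0.88). UHRF1 was most like POLD3 (0.93), BAZ1B (0.93) and EIF4G2 (0.91). DNMT3B was most like FBXO22 (0.98) and AC006329.1 (0.97), and DNMT3A like ATP2A2, EP400 and BPTF (each 0.86). TET1 was most like TPP2 (0.91), TET2 like VPS36 (0.94) and TET3 like ARID1B (0.90). Among the genes named for DNMT1 and UHRF1, MCM10 and POLD3 act in DNA replication, and POLD3 is also on the list of S phase genes. The other genes were not sorted by function, so no theme is read from this.

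The wider machinery was described with lists of named genes. Their counts are read against the share of all genes called in the same comparison, which was 50.2% over all cells (27.3% higher and 22.9% lower) and 58.3% in trophectoderm/amnion-like cells (30.4% higher and 27.9% lower). Of the 8 partners of methylation copying, 4 were called over all cells, 1 higher and 3 lower, a count at the 50.2% of all genes, with a list median of -0.30 on the log2 scale. CDCA7L, a relative of the HELLS partner CDCA7, fell from 91.5 and 95.1 CPM to 12.2 and 14.6 CPM (log2 fold change -2.80, SE 0.15, adjusted p = 1.31e-05). HELLS, a chromatin remodeller needed for normal methylation, fell from 348 and 369 CPM to 248 and 211 CPM (log2 fold change -0.64, adjusted p = 0.00663), and USP7, a deubiquitinase that binds DNMT1, fell by 0.36 on that scale (adjusted p = 0.0474). DMAP1, a DNMT1-binding protein, rose by 0.49 (adjusted p = 0.0281). In trophectoderm/amnion-like cells 7 of the 8 were called, 6 of them lower, including PCNA and LIG1 of the replication fork, against 58.3% of all genes, with 27.9% lower. The G1-called share was highest in this class, and its part in these calls was not tested. HELLS there was at 142 and 131 CPM, while in pluripotent-like blastoid cells it was at 377 and 397 CPM and was not called.

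Of the 8 readers of methylated DNA, 4 were called over all cells, 3 higher and 1 lower, against 50.2% of all genes. ZBTB38, a zinc finger protein that binds methylated CG, rose from 9.7 and 9.6 CPM to 21.4 and 19.97 CPM (log2 fold change 1.10, adjusted p = 9.31e-04). ZBTB4 and MBD1 rose by 0.62 and 0.53 (adjusted p = 0.0225 and 0.0199), and the glycosylase MBD4 fell by 0.42 (adjusted p = 0.0238). Of the 11 genes of base removal and repair, 6 were called, 4 higher and 2 lower, near the 50.2% of all genes. GADD45G and GADD45B, stress-response proteins linked to demethylation and also to growth arrest, rose by 3.06 and 2.37 on the log2 scale (adjusted p = 5.61e-05 and 4.73e-04). GADD45G went from 9.2 and 5.8 CPM to 55.4 and 68.1 CPM. XRCC1, a scaffold of base repair, rose by 0.83 (adjusted p = 0.0129). LIG3 and PARP1 fell by 0.75 and 0.58 (adjusted p = 0.00339 and 0.0108). TDG, the glycosylase that acts after TET, did not pass (log2 fold change 0.10, adjusted p = 0.598).

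Of the 8 cofactors and partners of TET enzymes, 4 were called over all cells, 1 higher and 3 lower, against 50.2% of all genes. IDH2, which makes 2-oxoglutarate in mitochondria, rose from 57.3 and 56.4 CPM to 97.8 and 118 CPM (log2 fold change 0.93, adjusted p = 0.00139), while the cytosolic IDH1 fell by 0.60 (adjusted p = 0.0245) and CXXC5, a CG-binding protein, by 0.57 (adjusted p = 0.00827). PRDM14, a pluripotency factor, fell from 9.0 and 11.2 CPM to 0.93 and 1.63 CPM (log2 fold change -2.96, adjusted p = 2.54e-04), and was at 15.0 and 19.6 CPM in pluripotent-like blastoid cells on 13 and 26 UMIs. Of the 11 genes of methyl donor supply 4 were called, 2 higher and 2 lower, below the 50.2% of all genes. MTR, methionine synthase, rose by 1.16 (adjusted p = 2.63e-04). SHMT2 and PHGDH of serine and glycine metabolism fell by 1.22 and 0.81 (adjusted p = 2.64e-04 and 0.0029). In trophectoderm/amnion-like cells 10 of the 11 were called, 8 of them lower, against 58.3% of all genes called and 27.9% called lower.

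Of 11 silencing partners and regulators of new methylation, 9 could be tested and 5 were called over all cells, 2 higher and 3 lower, near the 50.2% of all genes. EZH2, the catalytic subunit of the complex that sets H3K27 methylation, rose from 32.8 and 39.2 CPM to 97.8 and 64.6 CPM (log2 fold change 1.17, adjusted p = 0.00295), and SETD2 rose by 0.50 (adjusted p = 0.0119). NSD1, which sets the H3K36 methylation that DNMT3A binds, fell by 0.58 (adjusted p = 0.0063) and EHMT1 by 0.43 (adjusted p = 0.0294). DPPA3, an inhibitor of UHRF1, had 29 and 47 UMIs in the hESC samples and 3 and 6 UMIs in the blastoid samples and was called lower (adjusted p = 8.48e-04). Of 10 germline genes that promoter methylation commonly keeps silent, 2 could be tested. DAZL, an RNA-binding protein of germ cells, had 12 and 21 UMIs in the hESC samples and 0 in both blastoid samples and was called lower (adjusted p = 0.00157). STK31 did not pass over all cells (adjusted p = 0.0878) but was called higher in trophectoderm/amnion-like cells, on 6 and 14 UMIs (log2 fold change 1.74, adjusted p = 0.0105). In pluripotent-like blastoid cells STK31 and TDRD1, a protein of the germline piRNA pathway, were the 2 that could be tested, and both were called higher (log2 fold change 2.17 and 2.71, adjusted p = 0.0393 and 0.0266). These calls rest on 3 and 4 UMIs of STK31 and 2 and 4 UMIs of TDRD1. DPPA3 and the germline genes named here passed the filter on low counts only through the group where they were higher. The direction of their calls was thus largely set in advance, and germline genes low in both groups went untested.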

How the data were processed

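Single-cell RNA was measured in 2 hESC and 2 blastoid samples. For each sample the authors deposited a table of UMI counts that were not normalized, made with Cell Ranger on GRCh38 per the submitters' processing notes (no version given). 3′ libraries count molecules near the end of a transcript, so isoforms are not told apart. Kept cells had 500 genes or more, a mitochondrial share of up to 20% and no doublet call from Scrublet (expected 6%). Scrublet called 26, 4, 10 and 32 barcodes, so doublets of similar cells remain. Cells were clustered in scanpy 1.11.5 (2000 variable genes, 30 components, 15 neighbours, Leiden at resolution 0.5 with leidenalg 0.10.2), without the 7 enzymes and the phase lists. A cluster took the class with the largest share of its markers detected in at least 10% of cells (at least 3 markers). That rule, and the naming of shallow clusters by a leading marker, were set after the clusters had been seen. Phase was scored on cells thinned to 2000 UMIs. UMI counts were summed per sample, phase or class and tested in edgeR 4.0.16 by quasi-likelihood (R 4.3.3, TMM, filterByExpr, Benjamini-Hochberg adjustment), with DESeq2 1.42.0 as an alternative. The SE of a log2 fold change is its size over the square root of F. The test recovered 56.5% of 200 genes changed 2-fold in simulated all-cell sums, 26% in G1-called, 81% for S against G1, 37% for the difference between groups and 46.5% to 71% in the classes. Clopper-Pearson intervals of shares cover counting error at 95%. The genes named are the 7 enzymes, up to 3 called genes per list and direction with the largest change, and the 3 genes most like each enzyme. The 7 genes and the lists were chosen with earlier results of these data known. Alternatives were DESeq2, library size alone, no filter, at least 1000 genes per cell, doublets kept, no shared barcodes, tertiles of list UMIs as phases, other clusterings, each sample left out and, added after seeing the data, classes within a phase call. Some genes that the naming rules pick are not reported here.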

Additional observations from a re-analysis of the deposited data

Results flagged for a closer look

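The S-against-G1 difference of DNMT1 was larger in the blastoid than in the hESC samples, by 1.16 on the log2 scale (SE 0.14, edgeR adjusted p = 7.62e-07, 8.78% of all genes called). The difference between the groups was tested as an interaction in a fit with the sample as a block, and both blastoid samples showed a larger rise than both hESC samples. For DNMT3B the same test gave 0.566 (SE 0.15, edgeR adjusted p = 0.0106), a call that was lost without hESC 1, without shared barcodes and without the block. The S list UMIs per 2000 UMIs differed more between phase calls in the blastoid samples than in the hESC samples, and their part in either result was not tested beyond the bins described above. The mix of blastoid classes also differed between phase calls, and its part in either result was not tested.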

How the results depend on the processing

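Of 891 values of single genes under alternatives, 757 kept their direction and their side of the threshold, 69 lost a call, 23 gained one and 42 changed sign. The cause was not tested. The fall of DNMT3B kept its call in every alternative of the 7 comparisons of blastoid with hESC samples, with log2 fold changes from -3.48 to -1.03. With 2 samples in a group and 6 UMIs of TET3 in the pluripotent-like blastoid cells, low genes are limited by counts, and leaving out a sample left a group with 1 sample that is assumed to vary like the others.

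Of the 7 genes, those called in G1-called cells went from 4 to 2 with DESeq2, with library size alone, without the filter and without shared barcodes, and ranged from 2 to 4 with a sample left out. Those called in G2M-called cells ranged from 3 to 5 with a sample left out. S against G1, they went from 4 to 1 with phases by tertiles of list UMIs and ranged from 1 to 4 with a sample left out. G2M against G1, they went from 4 to 2 with DESeq2, to 2 without the replicate block and to 1 with tertiles, and ranged from 1 to 4. For the difference between groups they went from 2 to 4 with tertiles and to 1 without the replicate block. Which genes were called there also changed with a sample left out. In pluripotent-like cells they went from 3 to 1 in G1-called cells alone, where 4 of the 7 could be tested, and ranged from 1 to 3. In mesoderm/mesenchyme-like cells they went from 5 to 3 in G1-called cells alone and ranged from 3 to 5. The difference in G1 share went from 27.1 to 8.48 points with tertiles. No paired analysis was possible for blastoid against hESC samples because the groups share no replicate numbers.

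Over all genes, calls fell with DESeq2 from 4651 to 3042 in G1-called cells, from 2807 to 1758 for S against G1 and from 3465 to 2089 in pluripotent-like cells. Without hESC 1 they fell from 8194 to 4788 over all cells, in G1-called cells to 2011, in S-called cells from 5634 to 3656, for the difference between groups from 1230 to 432 and in pluripotent-like cells to 1284. Without hESC 2 the numbers were 4994 over all cells, 2824 in G1-called cells, 656 for the difference between groups and 1565 in pluripotent-like cells. S against G1 they were 202 without blastoid 3, 366 without blastoid 4, 1696 without shared barcodes, 479 with tertiles and 1169 without the replicate block. G2M against G1 they fell from 3008 to 656, 677, 1701, 1152 and 1219 in the same order. With tertiles 7117 were called in G1-called cells, and without the replicate block 321 for the difference between groups. Within 1 phase call the classes had fewer calls in all 9 cases, by over 1.5 times in 6, which had 1066, 1855 and 2086 in G1-, S- and G2M-called pluripotent-like cells (of 3465), 4763 in G1-called mesoderm/mesenchyme-like cells (of 8659) and 4673 and 4782 in G1- and S-called trophectoderm/amnion-like cells (of 8786).

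Changes of sign, in log2 fold change, fell mostly on uncalled values near 0. TET3 over all cells was at 0.089 with library size alone, 0.0895 without hESC 1, 0.024 without blastoid 4 and 0.0013 without shared barcodes. TET3 in G1-called cells ranged from -0.0056 without hESC 2 to 1.24 without hESC 1 and was at -0.15 with tertiles, in S-called cells at 0.077 with tertiles, and in G2M-called cells at 0.098 with library size alone and from -0.20 without hESC 2 to 0.115 without hESC 1. TET3 was at 0.22 for S against G1 without blastoid 3, from -0.020 without blastoid 4 to 0.33 without blastoid 3 for G2M against G1 and at 0.24 for the difference between groups with tertiles. In mesoderm/mesenchyme-like cells TET3 was at 0.14 with library size alone, 0.018 without the filter, 0.12 without hESC 1, 0.00066 without blastoid 4, 0.033 without shared barcodes, 0.025 with classes given per cell from marker UMIs, and 0.20 and 0.050 in G1- and G2M-called cells. In trophectoderm/amnion-like cells TET3 was at -0.011 without hESC 2, ranged from -0.095 without blastoid 3 to 0.39 without blastoid 4, and was at -0.061 and -0.10 in S- and G2M-called cells. TET1 was at 0.017 in S-called cells with library size alone. For S against G1, TET1 was at -0.042 without blastoid 3, -0.00047 without blastoid 4 and -0.049 with tertiles, and DNMT3A was at -0.033 with tertiles. In pluripotent-like cells TET1 ranged from -0.11 without blastoid 4 to 0.17 without blastoid 3 and was at -0.15 without shared barcodes and -0.0056 in G1-called cells, and TET2 was at -0.21 without blastoid 4, -0.18 at Leiden resolution 1.0 and -0.27 in S-called cells. UHRF1 was at -0.32 in G1-called cells without shared barcodes, and in trophectoderm/amnion-like cells from -0.14 without hESC 1 to 0.33 without hESC 2, at -0.073 without blastoid 3 and at -0.28 without shared barcodes. DNMT1 was at -0.49 in G1-called mesoderm/mesenchyme-like cells, where it was called, and at 0.23 and 0.16 in S- and G2M-called trophectoderm/amnion-like cells.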
